A study of Mus musculus with 10 samples.

Results

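The 10 genes described here act in the mitochondrial breakdown of the branched-chain amino acids leucine, isoleucine and valine. They are Slc25a44, Bcat2, Bckdha, Bckdhb, Dbt, Bckdk, Ppm1k, Ivd, Hibadh and Mccc1. They were chosen by name for their place in this route and not by a measured value, but with earlier results of these data known. They are 10 of 41249 gene identifiers counted by RNA sequencing of whole interscapular brown adipose tissue (iBAT). All 10 were found in the count tables, and all 10 passed a filter that kept 13739 genes with a mean above 1 CPM (counts scaled to a common library total) over the mice. Depots came from 5 Axl KO and 5 wild-type (WT) male mice, with 1 library per mouse. Axl KO mice lack the receptor tyrosine kinase AXL constitutively and in every cell type, through a knockout-first cassette inserted in embryonic stem cells, and the WT mice were littermates. All mice of both groups were on a high-fat diet (HFD), so no value here separates an effect of the diet. By the sample records HFD began at 6 to 8 weeks of age and lasted 24 weeks. The published text places the start somewhat later and the exposure slightly longer.

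Branched-chain amino acids reach the mitochondrial matrix of brown adipocytes through the inner membrane carrier SLC25A44, and the mitochondrial aminotransferase BCAT2 turns them into branched-chain 2-oxoacids. The branched-chain 2-oxoacid dehydrogenase complex then commits them to oxidation. BCKDHA and BCKDHB form its decarboxylase, DBT is its acyltransferase core, and the last subunit, encoded by Dld, is shared with other dehydrogenase complexes. The kinase BCKDK switches the complex off by phosphorylation and the phosphatase PPM1K switches it on again. Beyond the complex the routes split, with IVD and MCCC1 acting on leucine carbon and HIBADH on valine carbon. Brown fat is known as a tissue that burns these amino acids during cold exposure, and SLC25A44 is known to be needed for that use.

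Libraries held 5431014 to 9580215 counts per mouse, and the 10 genes together received 13731 to 23163 of them. Axl itself, chr7:25757273-25788705 on the minus strand in GRCm38, averaged 1.57 ± 0.646 CPM in the Axl KO group and 43.1 ± 5.86 CPM in the WT group (SD, n = 5 each), a log2 fold change of -4.77 with a Benjamini-Hochberg adjusted p of 1.10e-07 from the quasi-likelihood test of edgeR. Its exact two-sided permutation p was 0.00794, the smallest that 5 against 5 mice can give. It was the only gene of 13739 with an adjusted p under 0.05, which is 0.00728% of those tested, and DESeq2 called 9 genes, or 0.0655%. Brown adipocyte markers, the defining genes of the labelled tissue, were abundant in every mouse, with a summed level of 10339 to 13702 CPM in Axl KO mice and 8585 to 10769.9 CPM in WT mice. Of 14 such markers 13 had a higher mean in Axl KO mice, 5 of them at an unadjusted p under 0.05 by edgeR. Of all tested genes 49.8% had a higher mean in Axl KO mice, and at that threshold 4.54% were higher and 3.86% lower. After adjustment edgeR called 0 of the 14 and DESeq2 called 1. This was the deiodinase Dio2, singled out after its values were seen, with a DESeq2 adjusted p of 0.0302. The CPM ranges of the groups did not overlap for 2 of the 14 markers, Dio2 and Cox8b, and for 1.35% of all tested genes. Skeletal muscle markers were present as well, with a lower mean in Axl KO mice for all 14 and 0 at an unadjusted p under 0.05. Their summed level was 31.2, 8.72, 1887, 673 and 3835 CPM in Axl KO replicates 1 to 5 and 3605, 929, 4363, 3498 and 878 CPM in WT replicates 1 to 5. All 8 fibroblast markers had a lower mean in Axl KO mice, 2 of them at an unadjusted p under 0.05, and the 8 markers of B and T cells summed to at most 2.86 CPM in any mouse. Summed macrophage markers were at 139 to 249 CPM in Axl KO and 155 to 239 CPM in WT mice, and summed endothelial markers at 499 to 620.2 and 492 to 699.8 CPM. The mean was higher in Axl KO mice for 4 of 10 macrophage and 3 of 8 endothelial markers. In each list 1 gene had an unadjusted p under 0.05 by edgeR. These were Trem2, higher in Axl KO mice from 3 to 20 counts per mouse, and Cldn5, lower in Axl KO mice.

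Whether loss of AXL changed the transcripts of branched-chain amino acid catabolism was asked by comparing the groups for each gene. For none of the 10 genes was a difference between genotypes detected. At an adjusted p under 0.05, 0 of 10 were called by edgeR, with 0.00728% of all tested genes called, and 0 of 10 by DESeq2. At an unadjusted p under 0.05 the count was 0 of 10 by edgeR, where 8.4% of all tested genes passed, and 0 of 10 by DESeq2, where 6.93% passed. The mean was higher in Axl KO mice for 8 genes and lower for 2, while 49.8% of all tested genes were higher. The median log2 fold change of the 10 genes was 0.050, against -0.00059 over all tested genes, and single genes ran from -0.045 for Ppm1k to 0.20 for Dbt. In 0 of 10 genes did the CPM ranges of the groups separate, as they did for 1.35% of all tested genes. With the mean level of the muscle markers as a covariate, 0 of 10 genes were called and the median was 0.072. The part of the brown adipocyte and fibroblast markers in these values was not tested. Because whole depots were sequenced, fewer cells of a type and less RNA per cell cannot be told apart in any of these values.

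**Figure D1:**
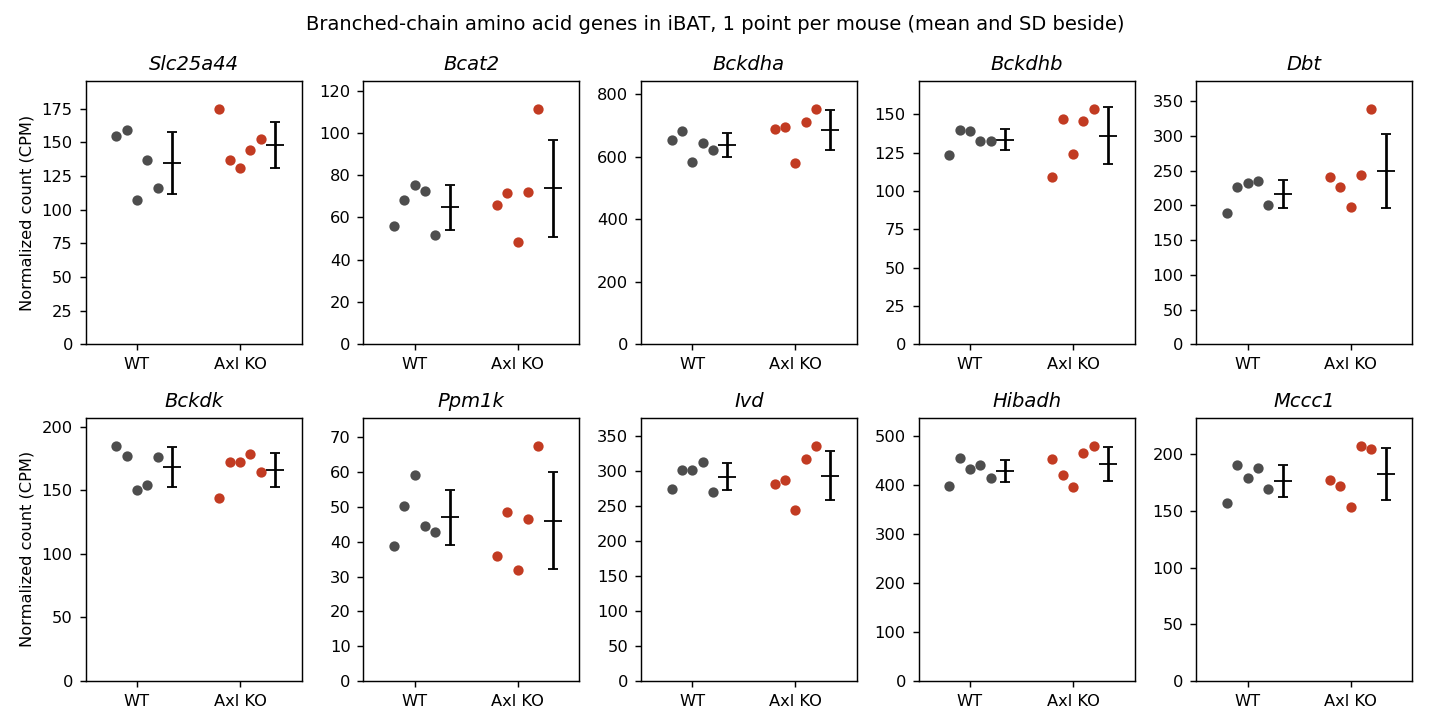
Normalized count in CPM (vertical axis, starting at 0) of each of the 10 genes in WT (grey) and Axl KO (red) mice, with 1 point per mouse and the mean and SD beside the points. The groups overlap in every panel, and Axl KO replicate 5, the rightmost red point, is the highest of all mice in 7 of the 10.

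The intervals of the differences show how large a change the 10 mice leave room for. The narrowest 95% interval was that of Hibadh, from -6.41% to 14.4%, and the widest was that of Bcat2, from -13.8% to 49.2%. No interval of the 10 reached a 2-fold change in either direction, and the median interval of all tested genes extended 0.25 to each side on the log2 scale. The 10 genes had 232 to 6455 counts per mouse, and their coefficient of variation over all 10 mice ran from 6.51% for Hibadh to 25.3% for Bcat2.

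The carrier Slc25a44 (ENSMUSG00000050144, chr3:88410498-88425139, minus strand) stands at the entry into the matrix. It was at 175, 137, 131, 144 and 152 CPM in Axl KO replicates 1 to 5 and at 155, 159, 107, 137 and 116 CPM in WT replicates 1 to 5. The highest value lay in an Axl KO mouse and the lowest in a WT mouse, but 3 WT mice lay within the Axl KO range. The log2 fold change was 0.13 (SE 0.12, 95% interval -0.12 to 0.38), with an edgeR quasi-likelihood adjusted p of 0.761 and an exact permutation p of 0.333.

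Bcat2 (ENSMUSG00000030826, chr7:45570153-45589711, plus strand) encodes the aminotransferase of the first reaction. Its level was 65.7, 71.7, 48.4, 71.9 and 111 CPM in Axl KO mice and 55.8, 68.2, 75.5, 72.7 and 51.6 CPM in WT mice. Axl KO mice held both the lowest and the highest value, and 3 of them lay inside the WT range. The log2 fold change of 0.18 (SE 0.18) rested on Axl KO replicate 5, since it was -0.012 without that mouse. With all mice the edgeR quasi-likelihood adjusted p was 0.799 and the exact permutation p 0.556. The cytosolic isoform Bcat1 was near the limit of what these libraries can count, at 1.53 ± 0.753 CPM in Axl KO and 2.33 ± 1.71 CPM in WT mice (SD, n = 5 each) from 4 to 42 counts per mouse. WT replicate 5 alone had 5.29 CPM of Bcat1. Per kilobase of its main transcript the mean of Bcat2 was 39.1 CPM against 0.755 CPM for Bcat1, and Bcat2 was the higher in every mouse.

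Of the complex subunits among the 10 genes, which leave out the more abundant Dld, Bckdha (ENSMUSG00000060376, chr7:25629946-25658981, minus strand) had the most counts. It was at 688, 693, 579, 709.7 and 751 CPM in Axl KO mice and 652, 683, 583, 644 and 622 CPM in WT mice. Axl KO replicates 1, 2, 4 and 5 all lay above the highest WT mouse, whereas Axl KO replicate 3 lay below the lowest. The log2 fold change was 0.10 (SE 0.074, 95% interval -0.058 to 0.27) with an edgeR quasi-likelihood adjusted p of 0.707 and an exact permutation p of 0.183. Without Axl KO replicate 3 it was 0.16, with an edgeR unadjusted p of 0.0242 and an adjusted p of 0.266, in a fit where 2027 genes, 14.8% of those tested, had an unadjusted p under 0.05. Bckdha ends 98292 bp from Axl on chromosome 7, and genes that close are inherited together with a targeted allele, so a difference carried by the flanking sequence and one due to the loss of AXL cannot be told apart for this gene. Its exons share 1171 bp with B3gnt8 on the other strand, but B3gnt8 had 53 counts in all 10 mice together.

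Its partner Bckdhb (ENSMUSG00000032263, chr9:83925145-84124240, plus strand) was at 109, 147, 124, 146 and 153 CPM in Axl KO mice and 123, 140.1, 139, 132 and 133 CPM in WT mice. The WT mice lay within 123 to 140.1 CPM, and Axl KO mice lay on both sides of them. The log2 fold change was 0.024 (SE 0.088, 95% interval -0.17 to 0.22), with an edgeR quasi-likelihood adjusted p of 0.961. The acyltransferase Dbt (ENSMUSG00000000340, chr3:116513070-116549981, plus strand) was at 241, 226, 197, 243 and 339 CPM in Axl KO mice and 189, 226, 232, 235 and 200.3 CPM in WT mice. Here 1 mouse, Axl KO replicate 5, stood far above the other 9, which lay between 189 and 243 CPM. Dbt had the highest log2 fold change of the 10 genes, 0.20 (SE 0.12, 95% interval -0.068 to 0.47), with an edgeR quasi-likelihood adjusted p of 0.662, and it was 0.067 without Axl KO replicate 5. The shared subunit Dld was at 975 ± 73.0 and 936 ± 45.4 CPM (SD, n = 5 each), a log2 fold change of 0.059. Subunits of 1 complex can be set against each other within a mouse, which removes the library size. The ratio of Bckdha to Bckdhb per kilobase of transcript was 3.24 to 4.89 over the 10 mice, that of Bckdha to Dbt 3.86 to 6.00 and that of Bckdhb to Dbt 1.01 to 1.49, with overlapping ranges of the genotypes for each ratio.

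Kinase and phosphatase set how much of the complex is active, and for neither transcript was a difference between genotypes detected. Bckdk (ENSMUSG00000030802, chr7:127904082-127910221, plus strand) was at 144, 173, 172, 179 and 164 CPM in Axl KO mice and 185, 177, 150.2, 154 and 176 CPM in WT mice, with the lowest value in an Axl KO and the highest in a WT mouse. Its log2 fold change was -0.018 (SE 0.077, 95% interval -0.19 to 0.15) with an edgeR quasi-likelihood adjusted p of 0.967. Ppm1k (ENSMUSG00000037826, chr6:57506502-57535468, minus strand) was at 35.8, 48.5, 31.8, 46.4 and 67.6 CPM in Axl KO mice and 38.8, 50.1, 59.2, 44.5 and 42.9 CPM in WT mice. The Axl KO mice again held both extremes, replicate 3 at the bottom and replicate 5 at the top. Its log2 fold change was -0.045 (SE 0.18, 95% interval -0.43 to 0.34), with an edgeR quasi-likelihood adjusted p of 0.965. Per kilobase of transcript there was more kinase than phosphatase RNA in every mouse. The ratio of Bckdk to Ppm1k was 6.58, 5.80, 8.83, 6.28 and 3.97 in Axl KO replicates 1 to 5 and 7.79, 5.77, 4.14, 5.64 and 6.69 in WT replicates 1 to 5. Both the highest ratio and the lowest lay in Axl KO mice, and the difference of the mean log2 ratio was 0.051 with an exact two-sided permutation p of 0.810. Leaving out each mouse in turn gave differences from -0.082 to 0.21 with permutation p-values from 0.365 to 0.905.

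**Figure D2:**
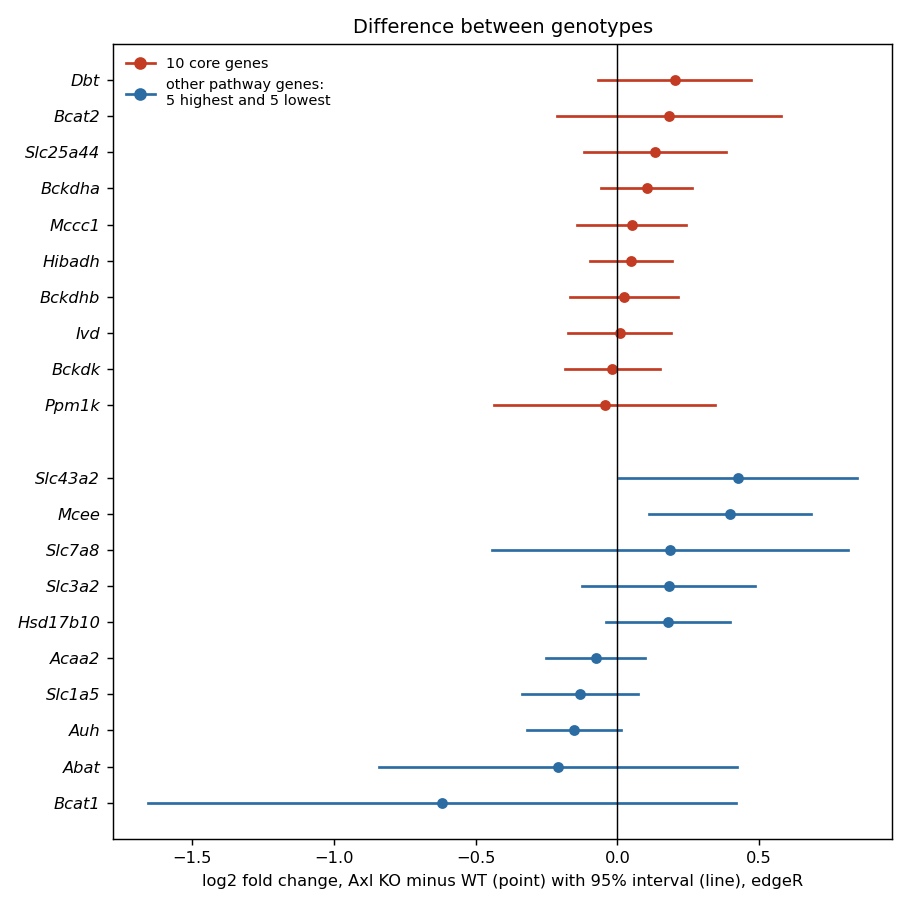
Log2 fold change, Axl KO minus WT, from edgeR (points) with 95% intervals (lines) for the 10 genes (red) and for the 5 highest and 5 lowest of the other pathway genes (blue). Each red interval crosses 0, and among the blue ones those of Slc43a2 and Mcee lie above it.

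Beyond the complex stand Ivd, Mccc1 and Hibadh, and each had nearly the same mean in both genotypes. Ivd (ENSMUSG00000027332, chr2:118861954-118882909, plus strand), the isovaleryl-CoA dehydrogenase of leucine breakdown, was at 282, 287, 244, 317 and 335 CPM in Axl KO mice and 274, 301, 302, 312 and 269 CPM in WT mice. Mccc1 (ENSMUSG00000027709, chr3:35959312-36000678, minus strand), the biotin-carrying subunit of methylcrotonyl-CoA carboxylase, was at 177, 172, 153, 207 and 205 CPM in Axl KO mice and 157, 190.3, 179, 188 and 169 CPM in WT mice. Hibadh (ENSMUSG00000029776, chr6:52546228-52640389, minus strand), the hydroxyisobutyrate dehydrogenase of valine breakdown, was at 453, 421, 397, 466 and 480.5 CPM in Axl KO mice and 398, 456, 433, 441 and 415 CPM in WT mice. For each of the 3 enzymes the lowest mouse was Axl KO replicate 3, and the WT range lay wholly inside the Axl KO range. The log2 fold change of Ivd was 0.0076 (SE 0.084), that of Mccc1 0.050 (SE 0.089) and that of Hibadh 0.049 (SE 0.067), with edgeR quasi-likelihood adjusted p-values of 0.991, 0.895 and 0.855. Exons of Mccc1 overlap with the antisense genes Mccc1os and Gm15952, which had 78 and 23 counts in all mice together, and with a pseudogene, so its counts are slightly uncertain because the strand setting of the counting is not given in the sources used here.

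Ivd, Mccc1 and Hibadh also varied together from mouse to mouse, whereas Bckdk did not follow them. The bases just upstream of these 4 genes are therefore printed here, from RefSeq promoter windows of GRCm38.p6, read 5′ to 3′ on the strand of the gene and ending at or shortly before the annotated gene start. Capitals mark the pentamer CCAAT on either strand, which reads ATTGG when it lies on the opposite one. The stretches are chr2:118861744-118861953 on the plus strand for Ivd, chr3:36000679-36000928 on the minus strand for Mccc1, chr6:52640390-52640550 on the minus strand for Hibadh and chr7:127903823-127904072 on the plus strand for Bckdk.
Ivd: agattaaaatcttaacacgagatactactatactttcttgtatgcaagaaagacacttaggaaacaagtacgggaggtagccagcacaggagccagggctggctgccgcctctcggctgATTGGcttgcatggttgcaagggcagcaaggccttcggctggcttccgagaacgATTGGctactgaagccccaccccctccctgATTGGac
Mccc1: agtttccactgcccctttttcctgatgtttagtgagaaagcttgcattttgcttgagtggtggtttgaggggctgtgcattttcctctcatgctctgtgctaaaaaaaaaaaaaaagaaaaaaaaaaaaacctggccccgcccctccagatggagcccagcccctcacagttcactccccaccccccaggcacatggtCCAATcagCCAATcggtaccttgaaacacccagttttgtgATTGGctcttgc
Hibadh: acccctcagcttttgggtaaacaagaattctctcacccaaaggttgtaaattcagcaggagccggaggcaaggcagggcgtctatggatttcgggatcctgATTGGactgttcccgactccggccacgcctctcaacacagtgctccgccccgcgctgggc
Bckdk: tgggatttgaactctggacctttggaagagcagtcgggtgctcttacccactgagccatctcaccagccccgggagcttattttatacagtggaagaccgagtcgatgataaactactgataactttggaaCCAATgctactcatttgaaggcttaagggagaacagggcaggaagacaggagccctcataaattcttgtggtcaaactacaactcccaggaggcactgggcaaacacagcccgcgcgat
Over the full windows of 300 bases, from 250 before to 50 after the start, Ivd held 4 copies of CCAAT, 3 of them in the stretch printed, Mccc1 3, and Hibadh and Bckdk 1 each. Any part of the pentamer in the pattern over mice was not tested. Windows were found for 8 of the 10 genes, 10 windows in all, and Slc25a44 and Dbt had none in the table. CCAAT on either strand was in 7 of these 10 windows, or in 6 of the 8 genes, and in 37.4% of all 32851 mouse windows. Bcat2 and Bckdhb each had more than 1 window, and those of Bckdhb were each counted among the 7. The genes with windows but no CCAAT were Bckdha and Bcat2, although Bcat2 also varied together with Ivd over the mice. GGGCGG was in 4 of 10 windows and in 35.7% of all. The motif of nuclear respiratory factor 1 was in 1 of 10 windows, that of Hibadh, and in 4.6% of all, and the cyclic AMP response element TGACGTCA was in 0 of 10 and in 1.79% of all. None of these motifs contains another, each was searched on both strands, and a match describes the letters of the window only.

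The other genes of the pathway were read from lists that cover the rest of the 3 branches, the path from propionyl-CoA to succinyl-CoA, the shared subunit with Bcat1 and the regulator Klf15, and plasma membrane transport. Of these 32 genes 31 were tested, with 22 higher and 9 lower in Axl KO mice, a median log2 fold change of 0.070 against -0.00059 over all tested genes, and 0 called by edgeR or by DESeq2 after adjustment. At an unadjusted p under 0.05 there were 3 by edgeR, all higher, where 4.54% of all tested genes were higher at that threshold, and 2 by DESeq2. The median was 0.070 for 5 further leucine genes, 0.087 for 6 isoleucine genes, 0.0069 for 4 valine genes and 0.062 for 8 genes from propionyl-CoA to succinyl-CoA.

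Mcee, the epimerase that acts on methylmalonyl-CoA from isoleucine and valine, was the pathway gene with the lowest p. It was at 91.2, 72.1, 70.6, 85.3 and 121 CPM in Axl KO mice and 57.2, 70.6, 67.5, 73.6 and 64.6 CPM in WT mice. The highest WT mouse lay above 2 Axl KO mice, so the groups overlapped. Its log2 fold change was 0.40 (SE 0.13, 95% interval 0.11 to 0.68), with an edgeR unadjusted p of 0.0103, an adjusted p of 0.571 and an exact permutation p of 0.0317. Slc43a2, a transporter of large neutral amino acids, was at 44.1 ± 14.1 and 32.7 ± 6.52 CPM (SD, n = 5 each), with a log2 fold change of 0.43 and an edgeR adjusted p of 0.588. The next highest log2 fold changes were those of the transporter Slc7a8 at 0.19, of its heavy chain partner Slc3a2 at 0.18 and of the isoleucine enzyme Hsd17b10 at 0.18, none past an unadjusted p of 0.05. At the other end stood Bcat1 at -0.62, the aminobutyrate transaminase Abat at -0.21, the leucine enzyme Auh at -0.15, the neutral amino acid transporter Slc1a5 at -0.13 and the thiolase Acaa2 at -0.077, also without any past that threshold. Klf15, a transcription factor known to control amino acid breakdown in other tissues, was at 23.1, 26.5, 18.1, 24.3 and 45.5 CPM in Axl KO mice and 18.8, 22.9, 28.3, 25.1 and 26.7 CPM in WT mice. The log2 fold change of 0.16 had an edgeR adjusted p of 0.850, and Axl KO replicate 5 again stood above the other 9 mice.

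Levels of different genes can be compared only per length, so CPM was divided by the length of the main annotated transcript of each gene. On this scale Bckdha was highest of the 10 genes at 348 ± 29.1 CPM per kilobase (SD, n = 10 mice). Hibadh followed at 239 ± 15.5, then Bckdhb at 91.6 ± 9.02, Ivd at 79.7 ± 7.24, Mccc1 at 73.2 ± 7.40 and Dbt at 70.6 ± 12.7 CPM per kilobase. Below these came Bckdk at 49.2 ± 4.01, Slc25a44 at 40.3 ± 5.80, Bcat2 at 39.1 ± 9.89 and Ppm1k at 8.38 ± 1.92 CPM per kilobase. The ranges over the mice did not overlap between Bckdha and Hibadh, between Hibadh and Bckdhb, between Dbt and Bckdk or between Bcat2 and Ppm1k, a step of 4.67-fold. The neighbours from Bckdhb to Dbt and from Bckdk to Bcat2 overlapped, and Slc25a44 exceeded Bcat2 in only 6 of 10 mice. The order depended on the length used. Per kilobase of all annotated exons Bckdha was still highest at 348 and Ppm1k lowest at 7.73, but Hibadh was at 42.8 and Mccc1 at 16.4 CPM per kilobase. Their annotated exons cover 10179 and 10952 bases, whereas their main transcripts have 1825 and 2455.

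**Figure D3:**
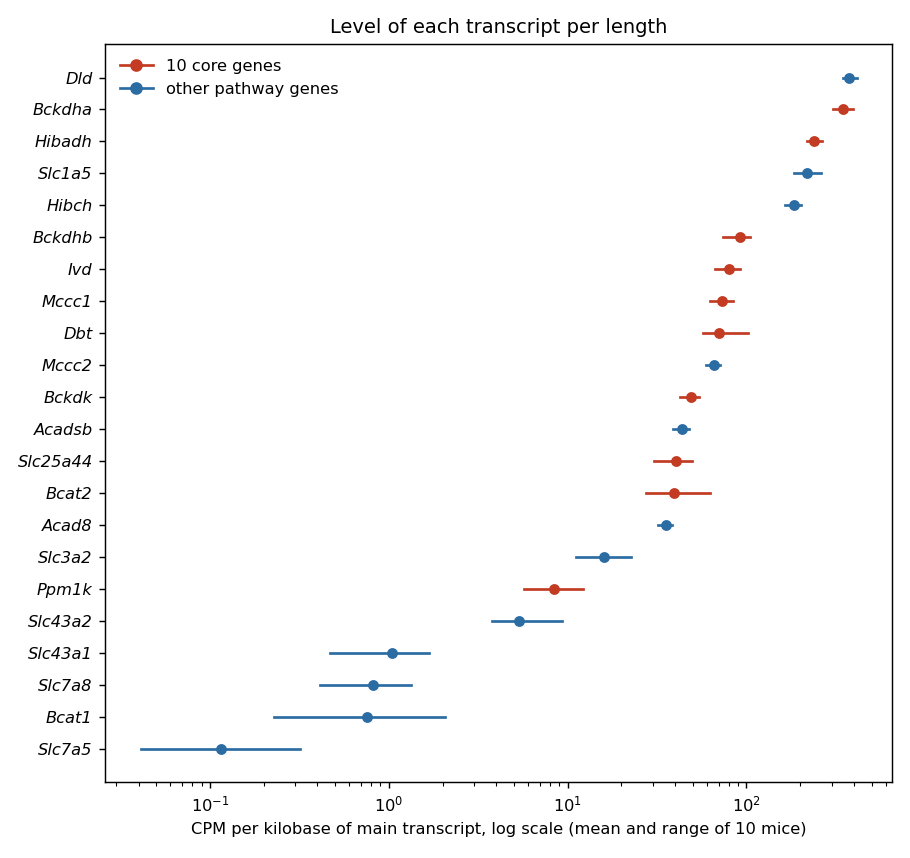
CPM per kilobase of the main transcript (horizontal log axis) for the 10 genes (red) and a selection of other pathway genes (blue), with the mean of 10 mice as a point and their range as a line. Of the genes drawn, Dld and Bckdha are at the top, Ppm1k is the lowest of the 10, and Bcat1 and Slc7a5 are at the bottom.

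Among the other genes on this scale, Dld was at 376 and Hibch, the valine enzyme before HIBADH, at 185 CPM per kilobase. Mccc2, the partner subunit of Mccc1, was at 65.5 against 73.2 for Mccc1. The acyl-CoA dehydrogenases of isoleucine and valine, Acadsb and Acad8, were at 43.8 and 35.5, below Ivd of the leucine branch at 79.7. The transporters spread most widely. Slc1a5 was at 217, Slc3a2 at 16.0, Slc43a2 at 5.37, Slc43a1 at 1.05 and Slc7a8 at 0.819 CPM per kilobase. Slc7a5, the well known carrier of leucine into cells, had only 1 to 6 counts per mouse and lay below the filter, and a genotype difference in it was not detectable at this depth.

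**Figure D4:**
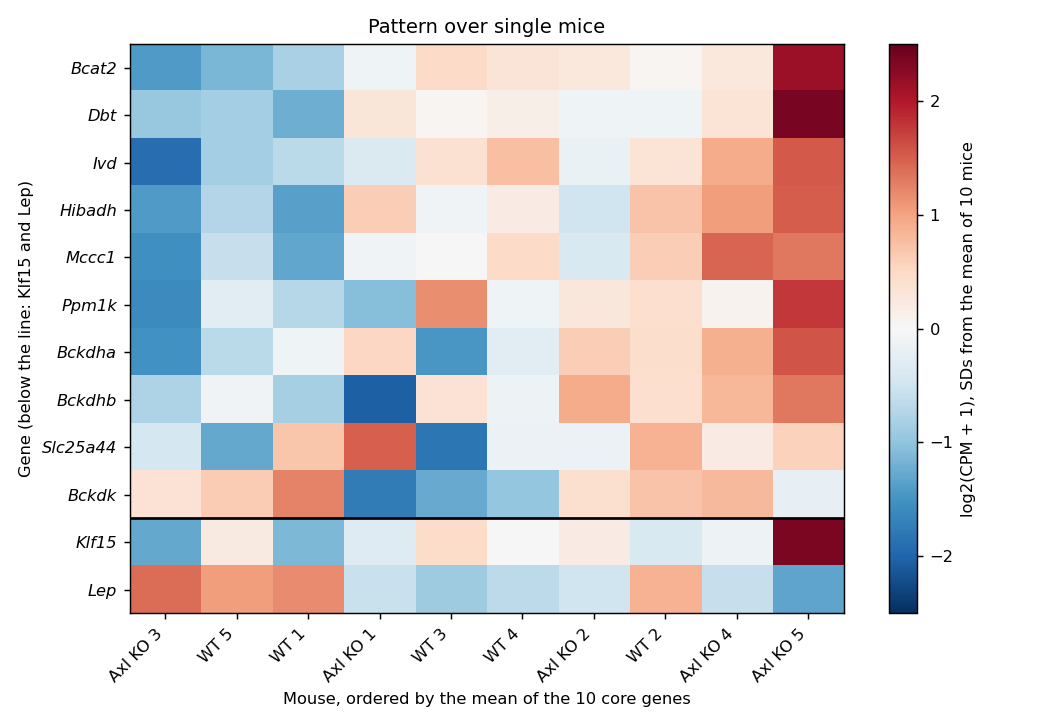
Level of the 10 genes, and below the line of Klf15 and Lep, in single mice (columns, ordered by the mean of the 10 genes), as log2(CPM + 1) in SDs from the mean of 10 mice (red above, blue below). Axl KO replicate 3 is at the low end and Axl KO replicate 5 at the high end, and Slc25a44 and Bckdk do not follow the order.

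Several of the 10 genes were high or low in the same mice, in both genotypes. Axl KO replicate 5 was the highest of all 10 mice for 7 of the genes, and Axl KO replicate 3 was the lowest for 6. Averaged over the 10 genes in SD units, the mice ran from -1.12 in Axl KO replicate 3, -0.58 in WT replicate 5 and -0.51 in WT replicate 1 to 0.45 in WT replicate 2, 0.69 in Axl KO replicate 4 and 1.39 in Axl KO replicate 5. The 2 extremes were thus both Axl KO mice. The summed level of the 10 genes was 2079 to 2759 CPM in Axl KO and 2194 to 2451 CPM in WT mice. Axl KO replicate 5 also had the smallest library and the highest summed brown adipocyte markers, 13702 CPM, and it had the most muscle marker RNA of the Axl KO mice, 3835 CPM. The part of these in its values was not tested.

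Relations between the genes over the 10 mice were computed for 55 pairs, 45 among the 10 genes and 10 with Klf15, on log2 values, with permutation tests adjusted over the 55 pairs by the Benjamini-Hochberg method. Of the 45 pairs 37 had a positive Pearson r, and 9 passed an adjusted p under 0.05 by both r and Spearman's rho. The share of pairs of other tested genes that would pass was not computed, so these counts are not a trait of this pathway. The strongest was Hibadh with Mccc1, with r = 0.952 (permutation p 4.0e-05, adjusted 0.00192) and rho = 0.952 (permutation p 6.0e-05, adjusted 0.0033). Without Axl KO replicates 3 and 5, the mice farthest from the median, r was still 0.916, and within genotypes it was 0.955. Ivd with Mccc1 had r = 0.926 (permutation p 0.00014, adjusted 0.00257) and rho = 0.927 (permutation p 0.0004, adjusted 0.0066), and r = 0.878 without the same mice. Bcat2 with Ivd had r = 0.908 (permutation p 0.00035, adjusted 0.00481) and rho = 0.939 (permutation p 0.00018, adjusted 0.00495), and 0.834 without them. The other 6 pairs joined Dbt with Hibadh, Ivd and Mccc1, Ivd with Hibadh, and Ppm1k with Bcat2 and Bckdhb, with r from 0.798 to 0.866. Bcat2 with Ppm1k leaned on Axl KO replicates 3 and 5, since its r of 0.850 was 0.575 without them. These are relations over mice that share a library for every gene, and genes of 1 library share its composition.

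Slc25a44, Bckdk and Bckdha took part in none of the 9 pairs. For the kinase Bckdk, r with the other 9 genes ran from -0.38 with Dbt to 0.33 with Bckdhb and was positive in 3 of 9. For the carrier Slc25a44 the highest r was 0.70 with Bckdha (adjusted permutation p 0.0651), which fell to 0.59 without Axl KO replicate 1 and WT replicate 3. Klf15 had r = 0.873 with Dbt and 0.855 with Ppm1k, but rho of 0.503 and 0.709 (adjusted permutation p 0.257 and 0.0978), so 0 of 10 pairs passed both tests. Without Axl KO replicates 3 and 5 its r with Dbt was 0.450. Of the 13729 tested genes outside the 10, 22 had r above 0.9 with the mean standardised profile of the 10 genes over the 10 mice, a description without a test. The 5 most alike were Coq10a, a coenzyme Q binding protein, at 0.970, the histone methyltransferase Setd1a at 0.966, the glycerol phosphate acyltransferase Gpat4 at 0.954, the mitochondrial RNA-binding protein Grsf1 at 0.951 and the mitochondrial tryptophanyl-tRNA synthetase Wars2 at 0.95.

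Lep, which encodes the adipokine leptin and is more abundant in white than in brown adipocytes, was singled out after its values were seen. It was at 248, 254, 595, 246 and 176 CPM in Axl KO mice and 538, 468, 212, 238 and 506 CPM in WT mice. These values form a low and a high range with no mouse between 254 and 468 CPM, so no correlation is given. The 3 mice with the lowest Bcat2, Axl KO replicate 3, WT replicate 5 and WT replicate 1, were the 3 with the highest Lep. This was not particular to Bcat2, since the same 3 mice were the lowest for Dbt, Ivd, Hibadh and Mccc1. They were not the 3 lowest for Slc25a44, Bckdha, Bckdhb, Bckdk or Ppm1k. WT replicate 2 was in the high Lep range too, at 468 CPM, but its Bcat2 was 68.2 CPM, the median of the WT mice. That was above the 65.7 CPM of Bcat2 in Axl KO replicate 1, a mouse of the low Lep range. A relation of Lep to Bcat2, Dbt, Ivd, Hibadh or Mccc1 was not tested. The summed white adipocyte list was at 212 to 646 CPM in Axl KO and 283 to 591 CPM in WT mice, with 4 of its 8 genes below the filter and 2 of those at 0 in every mouse. Lep made up most of that sum in each mouse, so the sum adds little to Lep itself. Of the 4 tested genes of the list, 1 had a higher mean in Axl KO mice, Retn with a log2 fold change of 0.49. The other 3, Lep among them, had a lower one, and 0 had an unadjusted p under 0.05 by edgeR.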

How the data were processed

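Whole iBAT depots of 5 Axl KO and 5 WT mice were sequenced. The authors deposited raw counts of reads per Ensembl gene, 1 table per mouse, without normalization or pooling. Their methods name Trim Galore, hisat2, GRCm38 and depletion of rRNA, but the labels name polyadenylated RNA and the submitters' processing notes list bcl2fastq, Trimmomatic 0.36, STAR 2.6.1c, DESeq2 and GRCm38.p5. The counting tool and its strand setting are not given in the sources used here, so overlapping genes are uncertain. Of 41249 identifiers 41163 matched GENCODE M21 and 86 did not.

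Counts were fitted in R 4.3.3 with edgeR 4.0.16 (TMM, quasi-likelihood test, no covariate) over genes with a mean above 1 CPM, with Benjamini-Hochberg adjustment over all 13739 genes. CPM values are TMM-normalized, and ± gives the SD. Single values were compared with exact permutation tests over mice, and all tests were two-sided. The common biological coefficient of variation was 14.8%. The fit was tested on simulated data. Correlations used log2(CPM + 1) and 100000 permutations. Main transcripts were the principal ones of the annotation. Alternatives were DESeq2 1.42.0, RLE size factors, filterByExpr, no filter, a robust fit, each mouse left out, protein-coding genes alone, the muscle list as a covariate and a block for the replicate number.

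The 10 genes and the lists were chosen with earlier results of these data known. Named beside them are Axl, the 5 highest and 5 lowest of the other pathway genes, the 2 highest and 2 lowest of each related list and the 5 genes most alike in profile. Dld, Klf15, Lep and the further genes whose levels per length are given were named in addition. Some genes that the rule would name are not reported here.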

Additional observations from a re-analysis of the deposited data

Results flagged for a closer look

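In 24 groups of 5 mice examined for a mouse far from the others, 1 was found, where chance alone gives about 1 in 20, or 1.2 groups. It was Axl itself in the Axl KO mice. Axl KO replicate 4 had 0.437 CPM of Axl from 3 counts, the nearest mouse had 1.69 CPM, and the gap was 0.801 of the range of the 5 mice. None of the 10 branched-chain amino acid genes had a mouse past the cutoff of this search in either genotype. Axl KO replicate 5, which stood above the other mice for Dbt at 339 CPM, did not reach it.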

How the results depend on the processing

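Over 180 combinations of a gene of the 10 with an alternative setting, 164 kept the sign and the side of the threshold, 16 changed sign, 5 genes kept their sign throughout, and the lowest adjusted p was 0.266. DESeq2 called 9 genes in all. With the muscle covariate 1 of the 10 genes had an unadjusted p under 0.05 (Dbt, 0.0483), as did 6.8% of all tested genes, and Ppm1k turned to 0.050 on the log2 scale. Leaving out each mouse gave 0 to 2 such genes, the 2 being Bckdha and Dbt without Axl KO replicate 3, where 14.8% of all tested genes passed. In the same fits the median of the 10 genes ran from -0.0027 to 0.097, that of the other pathway genes from 0.032 to 0.11, Axl from -4.87 to -4.53, Slc25a44 from 0.060 to 0.20, Bcat2 from -0.012 to 0.30, Bckdha from 0.067 to 0.16, Bckdhb from -0.024 to 0.094, Dbt from 0.067 to 0.28, Bckdk from -0.058 to 0.029, Ppm1k from -0.22 to 0.066, Ivd from -0.046 to 0.066, Hibadh from 0.018 to 0.087, Mccc1 from 0.0015 to 0.11, and the log2 ratio of Bckdk to Ppm1k from -0.082 to 0.21. The causes were not tested.

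No pairing by replicate number was seen, as same-numbered mice had correlations of -0.190, 0.369, 0.053, 0.060 and -0.355 in their deviations from the group means. Such correlations cannot show whether these mice shared a litter or a preparation. With the replicate number as a block 1 gene was called, 0 of the 10 genes passed, their median log2 fold change was 0.046 and that of the other pathway genes 0.069, Axl was at -4.77, and 1052 genes had an unadjusted p under 0.05 against 1154 without the block. Depth limits the genes with few counts per mouse, among them Bcat1, Abat, Slc7a5, Slc7a8, Slc43a1 and Pdk3.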

Other observations

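Close relatives of the branched-chain complex were read from a list of 17 genes for the pyruvate and oxoglutarate dehydrogenases with their kinases, phosphatases and pyruvate carriers, of which 16 were tested. In Axl KO mice 10 had a higher and 6 a lower mean, where 49.8% of all tested genes were higher, and the median log2 fold change was 0.040. After adjustment 0 were called by edgeR or DESeq2. At an unadjusted p under 0.05 there were 2 by edgeR, with 8.4% of all tested genes, and 1 by DESeq2, with 6.93%. The highest were Pdk3, a pyruvate dehydrogenase kinase, at 1.87 ± 0.544 CPM in Axl KO and 1.21 ± 0.297 CPM in WT mice (SD, n = 5 each), with a log2 fold change of 0.62 from only 6 to 19 counts per mouse, and Mpc2, a subunit of the mitochondrial pyruvate carrier, at 406 ± 72.5 and 336 ± 23.2 CPM, with 0.27. The edgeR quasi-likelihood adjusted p was 0.571 for both. The lowest were the phosphatase Pdp1 at -0.16 and the decarboxylase subunit Pdha1 at -0.082.

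Per kilobase of main transcript, levels were computed for 3 decarboxylase genes of the related complexes. Ogdh was at 847 ± 55.3, Pdha1 at 754 ± 66.1 and Pdhb at 542 ± 78.6 CPM per kilobase (SD, n = 10 mice), against 348 ± 29.1 for Bckdha and 91.6 ± 9.02 for Bckdhb. Pdhb exceeded Bckdhb in every mouse, 416 being its lowest value and 104 the highest of Bckdhb. The other subunits of these complexes were not compared on this scale.

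Of 14 citric acid cycle genes, 10 had a higher and 4 a lower mean in Axl KO mice, with 0 at an unadjusted p under 0.05 by edgeR or DESeq2 and a median of 0.038. The highest log2 fold changes were those of Sucla2 at 0.11 and Idh3a at 0.11, and the lowest was that of Cs at -0.080.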
